A study of Mus musculus with 6 samples.

Results

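Pdk1, Pdk2, Pdk3 and Pdk4 encode the pyruvate dehydrogenase kinases, the enzymes that switch the pyruvate dehydrogenase complex off. They were followed in mouse hearts with and without adrenal glands. The genes were taken as every noncontrol probe that carries the symbol Pdk1, Pdk2, Pdk3 or Pdk4 in the scanner files, which gave 4 genes with 6 probes, of 28786 gene names and 41174 noncontrol probes on the array. All 4 genes passed the filter on dim probes and were tested. All 6 samples were hearts of male C57BL/6 animals, an inbred strain of laboratory mouse, and the labels name no engineered allele. In 3 mice the adrenal glands, the main source of corticosterone and aldosterone, had been removed at 1 month of age, and 3 mice had a sham operation. Hearts were collected 6 months after surgery, and each was hybridised to its own 1-colour Agilent array of 60-base probes. Another label gives an age of 6 months, so the labels leave a month of doubt about the age of the animals when hearts were taken. Feeding state, hour of collection and hormone levels are not given in the sources used here.

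The pyruvate dehydrogenase complex turns pyruvate from glucose and lactate into acetyl-CoA inside mitochondria. A kinase adds phosphate to its E1 alpha subunit and stops the reaction, and a phosphatase removes the phosphate and restarts it. In heart and skeletal muscle Pdk4 is the kinase known for its rise in fasting and diabetes, driven by fatty acids through PPAR receptors and by glucocorticoids through the glucocorticoid receptor and FoxO factors, while insulin lowers it. Pdk2 is the most widely expressed kinase, Pdk1 is a target of the hypoxia factor HIF-1, and Pdk3 is known mainly from testis. The comparison therefore concerns a gene with a known steroid response, Pdk4, and 3 paralogues, after long-term loss of the adrenal steroids.

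The signal of a member is the binding of labelled cDNA to the probes printed here, and the sequences are shown because Pdk1 and Pdk3 each have 2 probes that read different stretches. Each probe is given 5′ to 3′, and the capitals mark the longest run of bases that it shares with a probe of another kinase, where that run reaches 11 bases.
Pdk1, A_51_P406429: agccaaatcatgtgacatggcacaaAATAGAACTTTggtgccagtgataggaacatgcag
Pdk1, A_52_P277654: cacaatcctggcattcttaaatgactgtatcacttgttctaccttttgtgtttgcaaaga
Pdk2, A_51_P426276: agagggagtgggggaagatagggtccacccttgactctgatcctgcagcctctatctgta
Pdk3, A_51_P392291: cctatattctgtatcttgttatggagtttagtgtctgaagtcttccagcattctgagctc
Pdk3, A_52_P99622: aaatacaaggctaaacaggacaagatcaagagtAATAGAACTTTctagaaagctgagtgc
Pdk4, A_51_P350453: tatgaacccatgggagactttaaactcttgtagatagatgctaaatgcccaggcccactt
The shared run of 11 bases lies in 1 Pdk1 probe and 1 Pdk3 probe, and the other 4 probes share at most 7 bases with a probe of another member. No other probe on the array has any of these 6 sequences.

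On the mm7 assembly of the array design, the Pdk1 probe A_51_P406429 lies at chr2:71745341-71745400 and A_52_P277654 at chr2:71747473-71747532, both on the plus strand with 2072 bases between them. The Pdk2 probe lies at chr11:95135705-95135764, on the minus strand. The Pdk3 probe A_51_P392291 lies at chrX:89151540-89151599 on the minus strand, while A_52_P99622 spans chrX:89151865-89155557 with 3633 bases between its parts, so that probe crosses an intron. The Pdk4 probe lies at chr6:5436327-5436386 on the minus strand. The design names RefSeq transcripts for 5 of the probes (NM_172665, NM_133667, NM_145630 for both Pdk3 probes, and NM_013743) and the clone AK165090 for A_52_P277654. An exon or UTR is not given, since no annotation of mm7 was used here.

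The arrays had 57.7% to 66.8% of spots well above background, and their processed signals had a 75th percentile of 644.1 to 923.8, to which each array was scaled. Every one of the 36 member spots (6 probes on 6 arrays) was well above background, and none was saturated, flagged as an outlier or replaced by a surrogate value. Their processed signals ran from 126.0, for Pdk3 probe A_52_P99622, to 37220.5, for Pdk4. The 3 sham arrays and the array of adrenalectomized replicate 1 were on slide 1, and the arrays of adrenalectomized replicates 2 and 3 were on slide 2. All 8 cardiomyocyte markers, among them the contractile genes Myh6 and Tnnt2, were well above background on all 6 arrays. Levels are log2 of the processed signal with the 75th percentile of its array set to 0. Differences are adrenalectomized minus sham on that scale, and levels of different probes are not ranked against each other because probes bind with different strength. In whole hearts, fewer cells of a type and less RNA per cell cannot be told apart.

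None of the 4 kinases passed the test, limma with Benjamini-Hochberg adjustment over 16952 genes at a threshold of 0.05. In the same fit 5 genes (0.0295%) were called higher and 2 genes (0.0118%) lower, and 2078 genes (12.3%) had an unadjusted p under 0.05. By sign, 3 kinases were higher and 1 was lower after adrenalectomy, beside 56.6% of all genes with a positive difference. The count of 0 kinases called was also 0 at an unadjusted p under 0.05. Calls were rare among all genes in this fit, so a count of 0 among 4 genes is near the background.

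**Figure D1:**
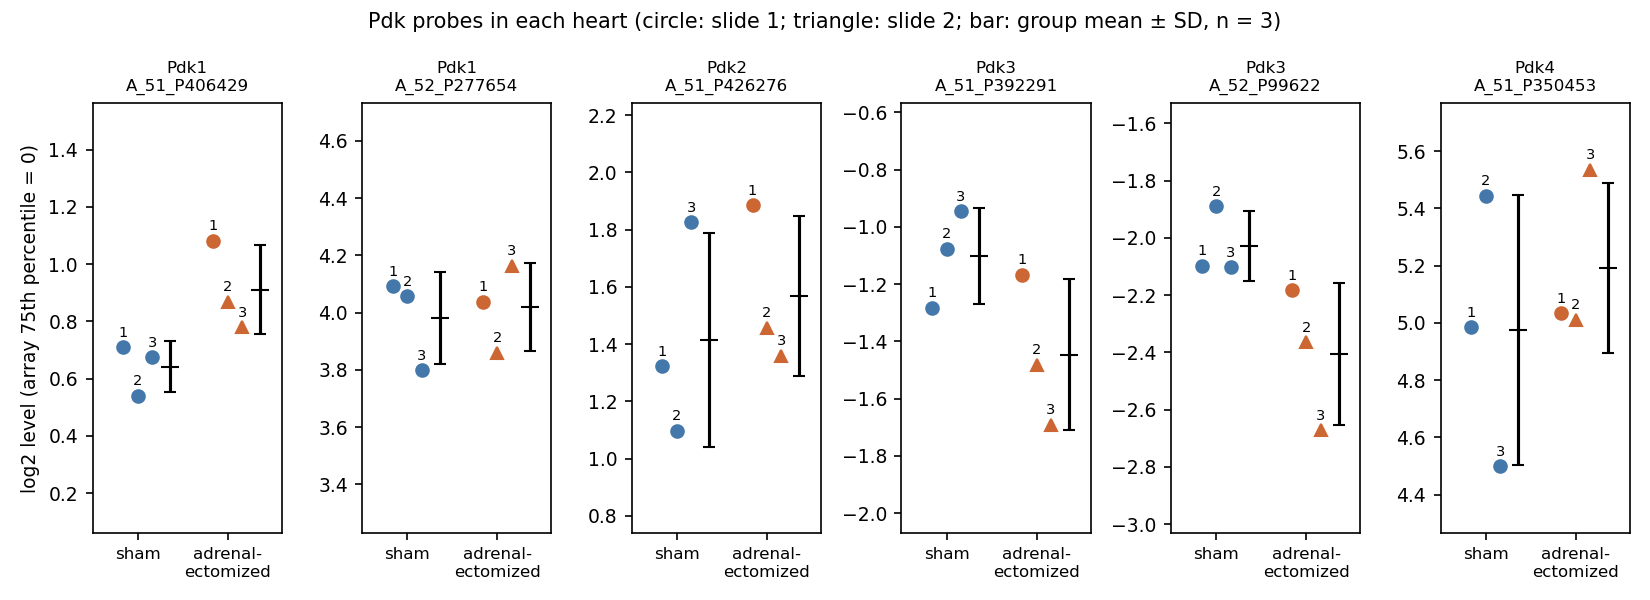
Log2 level of each of the 6 probes in each heart (vertical axis, array 75th percentile at 0, the same 1.5-unit span in every panel), by group (horizontal axis). Points are hearts, circles on slide 1 and triangles on slide 2, and bars are the group mean ± SD (n = 3). The groups do not overlap for Pdk1 probe A_51_P406429 and Pdk3 probe A_52_P99622 and overlap for the other 4 probes, and Pdk4 has the widest sham spread.

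Pdk4, the kinase of the fasting and steroid response, had log2 levels of 4.98, 5.44 and 4.50 in the sham hearts and 5.03, 5.01 and 5.54 in the adrenalectomized hearts. Sham replicate 3 was the lowest heart and adrenalectomized replicate 3 the highest, and the other 4 hearts were mixed between the groups. The group means were 4.98 ± 0.47 and 5.19 ± 0.30 (SD, n = 3 each). The difference was 0.22 (SE 0.26, 1.16-fold higher after adrenalectomy, adjusted p = 0.770 in limma), and its 95% interval ran from -0.40 to 0.83. That interval, from 3 hearts a group, includes a level 0.758 times the sham level and a level 1.78 times it. It thus leaves room for a moderate change in either direction. The sham hearts alone spanned 1.93-fold and the adrenalectomized hearts 1.44-fold. Only 6.43% of tested genes had a larger SD among the sham hearts, for which the median SD over all genes was 0.158.

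The Pdk4 difference turned on single hearts of both groups. Without sham replicate 2, the highest sham heart, it was 0.45, and without sham replicate 3 it was -0.02. Without adrenalectomized replicate 3, the highest heart, it was 0.046. Within slide 1, with the 3 sham hearts and adrenalectomized replicate 1, it was 0.06.

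Pdk2, the widely expressed kinase, had log2 levels of 1.32, 1.10 and 1.83 in the sham and 1.88, 1.46 and 1.36 in the adrenalectomized hearts. Sham replicate 3 and adrenalectomized replicate 1 were the high hearts, so the groups overlapped. The difference was 0.15 (SE 0.22, 95% interval -0.38 to 0.68, 1.11-fold, adjusted p = 0.816 in limma), from means of 1.41 ± 0.37 and 1.57 ± 0.28 (SD, n = 3 each). The spread among sham hearts was again wide, with 11.4% of genes above it. Without sham replicate 3 the Pdk2 difference was 0.36, without sham replicate 2 it was -0.0067, and within slide 1 it was 0.47.

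Pdk1, the HIF-1 target, was represented by its brighter probe, A_52_P277654, with log2 levels of 4.09, 4.06 and 3.80 in the sham and 4.04, 3.86 and 4.16 in the adrenalectomized hearts. The 6 hearts lay within 1.29-fold of each other, the narrowest range of the 4 kinases, and the groups overlapped. The difference was 0.04 (SE 0.13, 95% interval -0.28 to 0.35, adjusted p = 0.931 in limma), from means of 3.98 ± 0.16 and 4.02 ± 0.15 (SD, n = 3 each). Of all tested genes, 85.2% had a difference of larger size.

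The other Pdk1 probe, A_51_P406429, gave another picture. Its log2 levels were 0.71, 0.54 and 0.68 in the sham and 1.08, 0.87 and 0.78 in the adrenalectomized hearts, so every adrenalectomized heart was above every sham heart. Its difference was 0.27 (SE 0.12, 95% interval -0.02 to 0.56, 1.20-fold, adjusted p = 0.398 over 23993 probes in limma). Over the 6 arrays the Pdk1 probes had a Pearson r of 0.0012 and a Spearman rho of -0.03, with no p given since the probes share arrays and gene. The probes of this gene thus disagreed on which hearts were high.

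Pdk3, the kinase known from testis, was represented by A_51_P392291, with log2 levels of -1.28, -1.08 and -0.95 in the sham and -1.17, -1.48 and -1.69 in the adrenalectomized hearts. Adrenalectomized replicates 2 and 3, both on slide 2, were the lowest hearts, and adrenalectomized replicate 1, on slide 1, was above sham replicate 1. The difference was -0.35 (SE 0.16, 95% interval -0.73 to 0.04, 1.27-fold lower, unadjusted p = 0.0743, adjusted p = 0.449 in limma), from means of -1.10 ± 0.17 and -1.45 ± 0.26 (SD, n = 3 each). Within slide 1 it was -0.07. With the slide as a fixed block it was also -0.07 (adjusted p = 0.940 in limma). The design forces that match, since slide 2 held adrenalectomized hearts only. With the slide as a random block the difference was -0.36 (adjusted p = 0.413 in limma). Without adrenalectomized replicate 3 it was -0.22. A larger difference in size was found for 17.4% of all genes.

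The intron-crossing Pdk3 probe, A_52_P99622, had log2 levels of -2.10, -1.89 and -2.10 in the sham and -2.18, -2.36 and -2.67 in the adrenalectomized hearts, with no overlap. Its difference was -0.38 (SE 0.15, 95% interval -0.74 to -0.02, 1.30-fold lower, unadjusted p = 0.0427, adjusted p = 0.352 over 23993 probes in limma). The Pdk3 probes ran together over the 6 arrays (Pearson r 0.88, Spearman rho 0.71), and their differences were 0.03 apart. This pair therefore agreed on direction and on which hearts were low, although neither probe passed the test. For both probes the lowest hearts were adrenalectomized replicates 2 and 3, on slide 2. For A_52_P99622 adrenalectomized replicate 1, on slide 1, had -2.18, beside -2.10 in the lowest sham heart. Both probes read the same arrays, so their agreement cannot tell group from slide.

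Separated groups were also common among all probes. Of the 6 kinase probes, 2 had groups that did not overlap and 1 had an unadjusted p under 0.05, while over 23993 probes 19.5% had groups that did not overlap, 13.5% had an unadjusted p under 0.05 and 0.00417% (1 probe) passed the adjusted threshold. Over genes, 0 of 4 kinases had groups that did not overlap, beside 18.2% of all genes.

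Pdk4 was then set against each paralogue on the same array, as a log2 ratio in which the scaling of the array cancels. Such a ratio shows unequal change of the probes involved and not which of them moved. In 3 comparisons no ratio separated the groups. With 3 hearts against 3, the smallest two-sided p an exact permutation test can give is 0.1, so this test could not pass 0.05.

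Pdk4 over Pdk1 was 0.89, 1.39 and 0.70 in the sham and 1.00, 1.15 and 1.37 in the adrenalectomized hearts. The means were 0.99 ± 0.35 and 1.17 ± 0.19 (SD, n = 3 each), a difference of 0.18 or 1.13-fold (two-sided exact permutation p = 0.5, 0.75 after adjustment over the 3 ratios). The ratio was lowest in sham replicate 3 and highest in sham replicate 2, so the sham hearts enclosed all adrenalectomized hearts. Within slide 1 the difference was 0.0022, and against the other Pdk1 probe the sign turned, to -0.05.

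Pdk4 over Pdk2 was 3.66, 4.35 and 2.67 in the sham and 3.15, 3.55 and 4.18 in the adrenalectomized hearts. The difference was 0.06 (two-sided exact permutation p = 1, also 1 after adjustment), and the sham hearts again enclosed the adrenalectomized hearts. This was the most variable ratio, spanning 3.19-fold among sham and 2.04-fold among adrenalectomized hearts. Within slide 1 the sign of the difference turned, to -0.41. Without sham replicate 3 the difference was -0.38, and without sham replicate 2 it was 0.46.

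Pdk4 over Pdk3 was 6.27, 6.52 and 5.45 in the sham and 6.20, 6.49 and 7.23 in the adrenalectomized hearts. The means were 6.08 ± 0.56 and 6.64 ± 0.53 (SD, n = 3 each), a difference of 0.56 or 1.48-fold (two-sided exact permutation p = 0.5, 0.75 after adjustment). Adrenalectomized replicate 3, high for Pdk4 and low for Pdk3, was the highest heart, and sham replicate 3, low for Pdk4 and high for Pdk3, was the lowest. The difference was 0.12 within slide 1 and 0.25 to 0.78 with a single array left out.

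**Figure D2:**
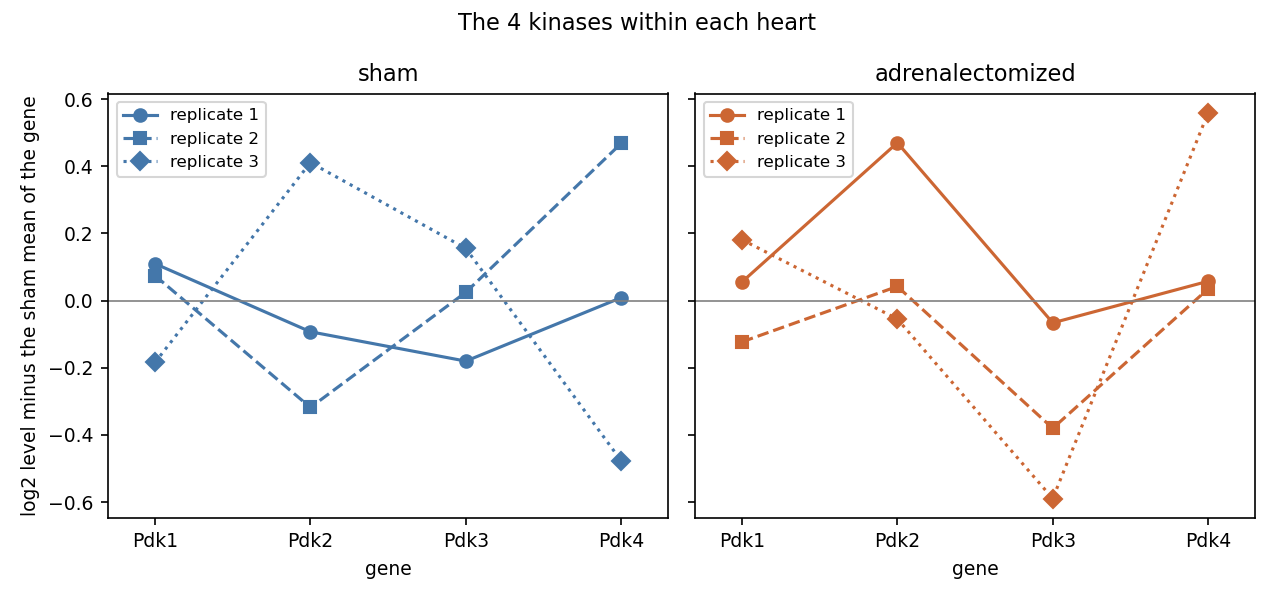
Log2 level minus the sham mean of the gene (vertical axis) for the 4 kinases (horizontal axis), with a line for each heart, sham hearts in the left and adrenalectomized hearts in the right panel. Sham replicate 3 combines the lowest Pdk4 value (-0.48) with a high Pdk2 value (0.41), and adrenalectomized replicate 3 combines the highest Pdk4 value (0.56) with the lowest Pdk3 value (-0.59).

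Across the 6 hearts, Pdk4 and Pdk1 had the closest relation of the 6 pairs of kinases, with a Pearson r of 0.80 (exact permutation p = 0.05, 0.3 after adjustment over 6 relations) and a Spearman rho of 0.66 (exact permutation p = 0.175, 0.483 adjusted). Without the 2 hearts farthest from the Pdk4 median r was 0.27, so the relation rested on those hearts, and with the other Pdk1 probe r was -0.11.

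Pdk4 and Pdk2 were opposed in the 6 hearts, with a Pearson r of -0.70 (exact permutation p = 0.133, 0.4 adjusted) and a Spearman rho of -0.31 (exact permutation p = 0.564, 0.677 adjusted), and r was -0.63 without the 2 farthest hearts. For Pdk4 and Pdk3 r was -0.59 (exact permutation p = 0.211, 0.413 adjusted) and rho -0.49 (exact permutation p = 0.356, 0.533 adjusted), and without the 2 farthest hearts r turned to 0.69. The 3 relations that leave out Pdk4 had adjusted permutation p-values of 0.413 to 0.803. No relation passed after adjustment. The slides hold 4 and 2 arrays, under the 6 taken here as the least for a correlation.

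The genes whose pattern over the 6 arrays was most like that of Pdk4 were Mtmr6, Ramp2, Rad23b, Tradd and Slc30a1, with Pearson r of 0.985, 0.985, 0.984, 0.984 and 0.984. Ramp2 encodes a partner protein of the adrenomedullin receptor, and Slc30a1 a zinc exporter. The closest to Pdk1 were Hbp1 (0.996), Polr3gl (0.981) and Ash2l (0.981), to Pdk2 Anxa6 (0.995), Tcn2 (0.995) and Bcam (0.994), and to Pdk3 Adamtsl4 (0.976), Bmp6 (0.975) and Gpm6a (0.972). These are the highest values among at least 11477 genes compared with each kinase on 6 arrays. An r over 0.95 was reached by 51 genes for Pdk4, 60 for Pdk1, 129 for Pdk2 and 11 for Pdk3. The r values describe these 6 arrays, with no p. Some depended on the processing. Pdk1 and Ash2l had an r of 0.364 with quantile normalization, 0.543 with the percentile over detected probes and 0.658 with median centring. With the other Pdk1 probe the values were -0.027 for Hbp1, -0.13 for Polr3gl and -0.10 for Ash2l. Pdk2 and Anxa6 had an r of 0.0081 when the probes of each gene were averaged. With the same averaging Pdk4 had 0.753 with Rad23b and 0.85 with Slc30a1. With normexp background correction Pdk3 had 0.791 with Adamtsl4, 0.626 with Bmp6 and 0.739 with Gpm6a. Neither Pdk2, Pdk3 nor Pdk4 was among the genes closest to another kinase. Pdk1 could not be, since only genes named by RefSeq accession were compared and its brighter probe carries a clone name.

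The genes around the kinases were followed in 9 lists, from the target of the kinases to the factors that act on their genes. The lists named 96 different genes, of which 92 were tested, and 0 passed the limma test in either direction. By sign 41 were higher and 51 lower, and 10 had an unadjusted p under 0.05. Over all genes tested 56.6% of differences were positive, 12.3% of genes had an unadjusted p under 0.05, and the median difference was 0.03.

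The pyruvate dehydrogenase complex, the target of the kinases, had 5 of 5 genes tested and none called, all with positive differences of 0.09 to 0.29 and a median of 0.21. Pdha1, the E1 alpha subunit that the kinases phosphorylate, had a difference of 0.29 (SE 0.17, adjusted p = 0.526 in limma), with log2 levels of 3.94 to 4.49 in the sham and 4.35 to 4.65 in the adrenalectomized hearts. Its groups overlapped through sham replicate 3, the highest sham heart. Pdhb, the E1 beta subunit, had 0.21, Dld, the E3 enzyme shared with other complexes, 0.26, Dlat, the E2 core, 0.11, and Pdhx, which binds E3, 0.09. These sizes depended on the choice of probe. With the mean of the probes of each gene Dld had 0.06 and Pdha1 0.15, both smaller, and Dlat 0.14, larger. The median of the 5 genes relative to their sham means was 0.08, -0.17 and 0.07 in the sham and 0.34, 0.28 and 0.0046 in the adrenalectomized hearts, so adrenalectomized replicate 3 lay among the sham hearts. The median difference was 0.12 without sham replicate 2 and 0.31 without adrenalectomized replicate 3. Without sham replicate 2 Pdha1 had 0.15 and Pdhb 0.12, and without adrenalectomized replicate 1 Pdhx had 0.018.

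Of the phosphatases that oppose the kinases, Pdp1, the main catalytic subunit in heart, had a difference of 0.02 and Pdpr, the regulatory subunit, -0.17 (SE 0.16, adjusted p = 0.702 in limma). Over 20 alternatives Pdpr ran from -0.99 to 0.13, with a lowest adjusted p of 0.0241 in limma. Among 6 genes of pyruvate and lactate handling none was called and the median was 0.10. Pcx, pyruvate carboxylase, had 0.46 (SE 0.19, adjusted p = 0.407 in limma), and Ldhb, the lactate dehydrogenase subunit abundant in heart, -0.21. Within slide 1 Pcx had 0.09 and Ldhb -0.10.

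The branched-chain ketoacid dehydrogenase is a related complex with a kinase of the same family, Bckdk. None of its 5 genes was called, and the median was -0.21. Bckdk itself had a difference of 0.02. Dbt, the E2 core of that complex, had the smallest p of the list, with log2 levels of 0.46, 0.52 and 0.26 in the sham and -0.07, -0.14 and -0.31 in the adrenalectomized hearts. Every adrenalectomized heart was below every sham heart, by a mean of 0.59 (difference -0.59, SE 0.12, unadjusted p = 0.00186, adjusted p = 0.202 in limma). Ppm1k, the phosphatase of the complex, had -0.30 (adjusted p = 0.532 in limma).

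**Figure D3:**
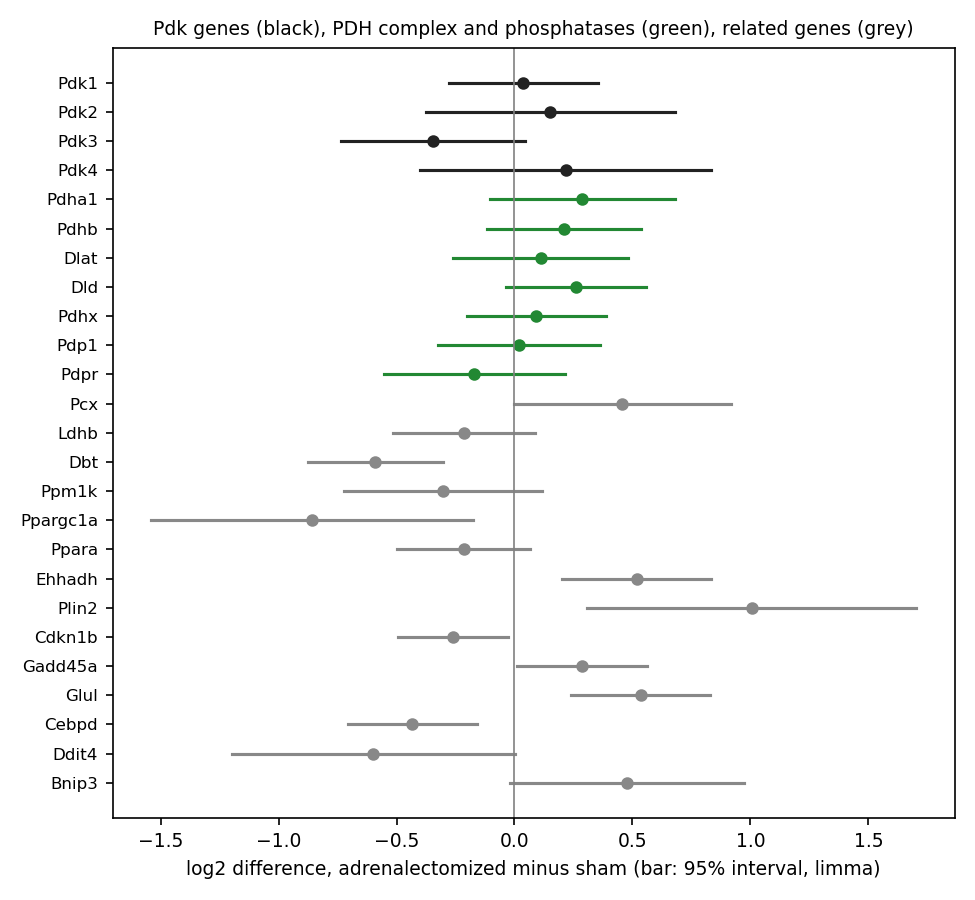
Log2 difference, adrenalectomized minus sham, with its 95% limma interval (horizontal axis) for the 4 kinases (black), the pyruvate dehydrogenase complex and phosphatase genes (green) and the named genes of the other lists (grey). All 5 genes of the complex lie to the right of 0 with intervals that include it, and none of the genes shown passed the adjusted threshold.

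Among the factors that act on Pdk genes, 15 of 16 were tested and none was called, with 3 positive and 12 negative differences and a median of -0.10. Ppargc1a, the coactivator PGC-1 alpha that drives mitochondrial genes, had log2 levels of 2.79, 3.35 and 2.36 in the sham and 1.67, 1.87 and 2.40 in the adrenalectomized hearts. Adrenalectomized replicate 3 was above sham replicate 3, so the groups overlapped, and the difference was -0.86 (SE 0.29, adjusted p = 0.329 in limma). Ppara, the receptor for fatty acids in heart, had -0.22 (SE 0.12, adjusted p = 0.508 in limma). Nr3c1, the glucocorticoid receptor, had 0.07, and Foxo1, a FoxO factor of the Pdk4 promoter, -0.16.

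Pdk4 shares its fatty acid control with the PPAR targets, of which 26 were tested and none called, with 14 positive and 12 negative differences and a median of 0.02. Plin2, a lipid droplet coat protein, had log2 levels of 3.76, 3.91 and 3.94 in sham and 4.16, 5.37 and 5.10 in adrenalectomized hearts. The groups did not overlap, and the Plin2 difference was 1.01 (SE 0.29, adjusted p = 0.285 in limma). Its high hearts, adrenalectomized replicates 2 and 3, were both on slide 2, and within slide 1 its difference was 0.29. Ehhadh, a peroxisomal enzyme of fatty acid oxidation, had 0.52 (SE 0.13, adjusted p = 0.254 in limma). Angptl4, an inhibitor of lipoprotein lipase, had 0.52, and Ucp3, a mitochondrial carrier of muscle, 0.49. Both targets, chosen after their values were seen, did not pass the test either.

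Of 15 glucocorticoid readouts tested none was called, 3 differences were positive and 12 negative, the median was -0.17, and 6 genes had groups that did not overlap, beside 18.2% of all genes. The median was -0.067 without adrenalectomized replicate 3 and 0.054 with normexp background correction. Fkbp5, a chaperone that the receptor induces, had log2 levels of -2.45, -2.56 and -2.31 in the sham and -2.55, -2.46 and -3.24 in the adrenalectomized hearts, so that adrenalectomized replicate 3 alone lay below the sham hearts (difference -0.31, adjusted p = 0.589 in limma). Tsc22d3, the glucocorticoid-induced leucine zipper, had -0.25. Glul, glutamine synthetase, had 0.54 by its brightest probe (SE 0.12, adjusted p = 0.226 in limma) but -0.031 with the mean of its probes. Cebpd, a transcription factor, had -0.43 (SE 0.12, adjusted p = 0.264 in limma).

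The FoxO targets held 10 tested genes, none called, with a median of -0.01. Among them the growth arrest genes Cdkn1b and Gadd45a had -0.26 and 0.28. The HIF-1 targets, which share a regulator with Pdk1, held 12 tested genes, none called, with a median of 0.04. Ddit4, an inhibitor of mTOR signalling that is also among the glucocorticoid readouts, had -0.60 (SE 0.25, adjusted p = 0.407 in limma). Bnip3, a mitophagy receptor, had 0.48 (SE 0.21, adjusted p = 0.422 in limma). Within slide 1 Ddit4 had -0.10 and Bnip3 0.89.

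Markers of other cell types also differed in level between hearts, and their part in the kinase values was not tested. Of 10 adipocyte markers 9 were tested, all with positive differences and none called, with a median difference of 1.39. Their median relative to the sham means was -1.17, 0.86 and 0.31 in the sham and 0.20, 2.23 and 1.87 in the adrenalectomized hearts. Groups did not overlap for 2 of the 9, Elovl3 among them, beside 18.2% of all genes. No sham array had Elovl3 well above background. It passed the filter through the adrenalectomized hearts alone, so its sign followed from the filter and adds nothing to the count of positive differences. Pdk4 and Plin2 are also expressed in fat. The lists were chosen with earlier results of these data known, so counts from them only describe these hearts. All 7 atrial markers had negative differences without a call (median -0.61). All 7 had groups that did not overlap, beside 18.2% of all genes. All 7 also had an unadjusted p under 0.05 in limma, beside 12.3% of all genes. Their median relative to the sham means was -0.02, 0.32 and -0.31 in the sham and -0.57, -0.54 and -0.71 in the adrenalectomized hearts. Of 8 skeletal muscle markers 7 were tested, all with negative differences and a median of -0.39. The 5 tested of 8 markers for red cells and platelets had a median difference of 0.76, with medians of -0.045, 0.11 and 0.0078 in the sham and 1.04, 1.24 and -0.45 in the adrenalectomized hearts, so adrenalectomized replicate 3 lay below the sham hearts. The 8 cardiomyocyte markers had a median of -0.17, and no marker of these lists was called.

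Pdk3 was the only kinase called under any of the 20 alternatives run for each. With normexp background correction Pdk3 passed the test, with a difference of -0.54 (adjusted p = 0.0359 in limma), in a fit that called 1220 genes higher and 4734 lower in place of 5 and 2. In the same fit Pdk4 had 0.57 (adjusted p = 0.166 in limma), Pdk1 0.40 and Pdk2 0.35, still without a call. Over those alternatives, the adjusted p ran from 0.0359 to 0.940 for Pdk3, 0.166 to 0.975 for Pdk4, 0.150 to 0.997 for Pdk2 and 0.095 to 0.996 for Pdk1.

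**Figure D4:**
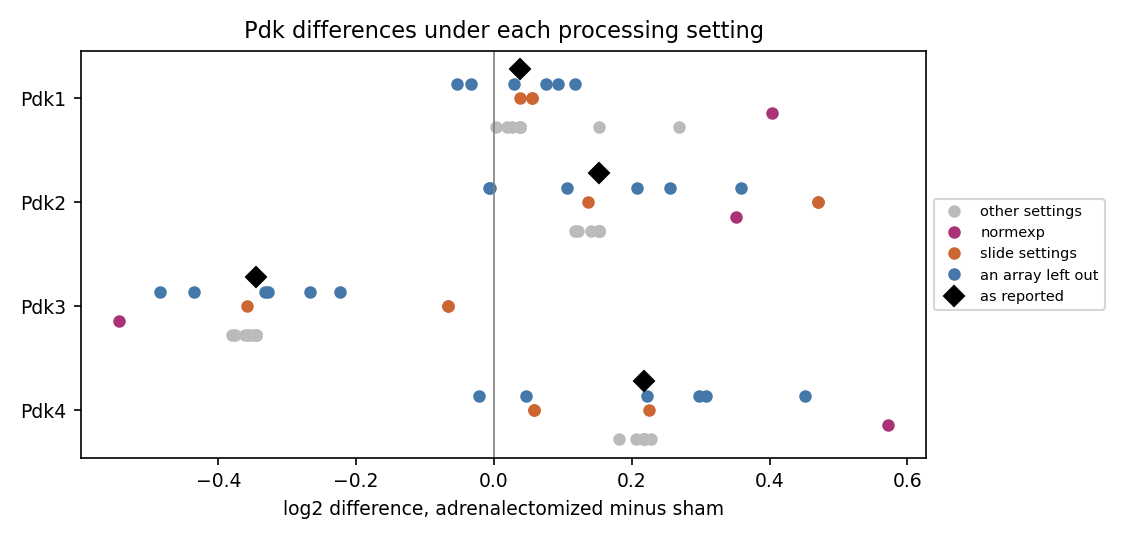
Log2 difference, adrenalectomized minus sham (horizontal axis), of each kinase (rows) under the main setting (diamond) and the alternatives (circles, by kind). Pdk3 is below 0 under every setting shown, while the values of Pdk1, Pdk2 and Pdk4 lie on both sides of 0.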

How the data were processed

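The deposited scanner files hold, per the file headers, processed signals from Feature Extraction 9.5.3.1 (9.5 per the submitters' processing notes). These are intensities on a linear scale, background-subtracted and detrended within an array. They were not normalized between arrays. The intensities in the deposited value table equalled these at all 45018 spots of each array. RNA was amplified before labelling, per the labels' protocols.

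Signals were taken as log2 minus the 75th percentile of the array, outlier spots were dropped and repeat spots averaged. A probe was tested if every array of 1 or both groups had it well above background, and a gene was its tested probe of highest mean. Of 41174 probes, 22951 (55.7%) were named by RefSeq accession. Groups came from the labels, and differences from limma 3.58.1 in R 4.3.3 (lmFit, eBayes, Benjamini-Hochberg, threshold 0.05), tested on simulated data. Ratios and relations used exact permutation tests over arrays. The number of arrays limits the precision.

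Named were all members and probes, the genes of the complex and its phosphatases, the 2 genes of smallest p in each other list (none passed), and the 5 (Pdk4) or 3 genes most like a member. Bckdk, Nr3c1, Foxo1, Angptl4, Ucp3, Fkbp5 and Tsc22d3 were named after their values were seen. The members and lists were chosen with earlier results of these data known. Pdp2, Irs2 and Zbtb16 matched no probe by name and Foxo3 failed the filter, so they were not analysed here. Alternatives covered background correction, scaling, filters, choice of probe, slide, replicate number, variance model and each array left out. Figures were drawn with Python 3.11.15 and matplotlib 3.10.9. Listed genes outside this rule are given by counts and medians.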

Additional observations from a re-analysis of the deposited data

How the results depend on the processing

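The count of genes called higher, 5 in the main setting, was 1220 with normexp, 41 within slide 1, 3 with median centring, 2 with quantile normalization and 0 with the percentile over detected probes, a filter on all 6 arrays, no filter, the mean of probes, the slide as a fixed block or the replicate block, and 0 to 39 with an array left out (39 without adrenalectomized replicate 1). The count called lower, 2, was 4734 with normexp, 7 with a variance trend and robust estimation, 4 with median centring, 1 with a filter on all 6 arrays, no filter, the slide as a fixed block or the replicate block, and 1 to 6 with an array left out (6 without sham replicate 2). Listed genes called, 0, were 23 with normexp and 0 to 1 with an array left out, the 1 being Plin2 without adrenalectomized replicate 1. With normexp Pdk3 was -0.54 and the Pdk4 to Pdk3 ratio difference 1.12. The causes were not tested.

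With an array left out, the differences ran from -0.054 to 0.12 for Pdk1, -0.0067 to 0.36 for Pdk2, -0.48 to -0.22 for Pdk3 and -0.021 to 0.45 for Pdk4. The ratio differences ran from 0.03 to 0.38 for Pdk4 to Pdk1 and from -0.38 to 0.46 for Pdk4 to Pdk2. Dlat ran from -0.0067 to 0.22 and Pdp1 from -0.12 to 0.091. The slide as a fixed block gave the same member values as slide 1 alone.

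Signs also turned for Glul with the mean of probes (-0.031), Ldhb (0.16), Ppara (0.053) and Ppm1k (0.0064) with normexp, Pdp1 with quantile normalization (-0.00034) and median centring (-0.017), and Pdpr (0.13) and Ppm1k (0.014) with the slide as a block or within slide 1. With the other probe, chosen after seeing the data, Pdk1 was 0.27 and Pdk3 -0.38. The replicate block left the differences at 0.04, 0.15, -0.35 and 0.22 for Pdk1 to Pdk4, with adjusted p of 0.949, 0.845, 0.570 and 0.827 in limma. Same-numbered arrays had correlations of 0.16, 0.16 and -0.16 over genes, so the numbers were not taken to pair the mice.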

Other observations

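A further probe, A_52_P1115842 on chromosome 7, carries the clone name AK034481, and its description names the Pdk4 product, so it is no member by symbol. Its processed signal was 57.0, 7.33 and 23.2 in the sham and 6.94, 5.79 and 6.14 in the adrenalectomized hearts. It was well above background on 1 of 6 arrays, that of sham replicate 1, so it gave no level for the comparison.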
